A study of Homo sapiens with 4 samples.

Results

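The YTH domain genes YTHDF1, YTHDF2, YTHDF3, YTHDC1 and YTHDC2 encode the proteins that read N6-methyladenosine (m6A), and the m6A peaks described here lie in those 5 genes themselves. GES-1 is an established human cell line used as a model of gastric epithelium. GES-1 cells had been given chenodeoxycholic acid (CDCA), a primary bile acid, at 100 µM for 48 h. They were set against GES-1 cells labelled as control. RNA from each was immunoprecipitated with an m6A antibody and sequenced. The series asked which m6A sites differed between the treated and the control cells. It comprised 4 samples, an immunoprecipitation and an input library from CDCA-treated cells and the same pair from control cells. Only the peak lists of both immunoprecipitations were analysed. A peak was taken as a member when its summit lay inside an hg19 gene span: 61.826 to 61.848 Mb on chromosome 20 for YTHDF1 (minus strand), 29.063 to 29.097 Mb on chromosome 1 for YTHDF2 (plus), 64.081 to 64.126 Mb on chromosome 8 for YTHDF3 (plus), 69.176 to 69.216 Mb on chromosome 4 for YTHDC1 (minus) and 112.849 to 112.931 Mb on chromosome 5 for YTHDC2 (plus). This gave 14 of 52188 peaks in CDCA-treated cells and 23 of 63093 peaks in control cells. Within these spans, peaks were taken by position only and not by measured strength. The genes and thresholds were chosen with earlier results of these data known.

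As background, the YTH domain holds the methyl group of m6A in a pocket of aromatic residues. YTHDF1, YTHDF2 and YTHDF3 are closely related cytoplasmic readers; YTHDF2 recruits the CCR4-NOT deadenylase to methylated mRNA, and YTHDF1 and YTHDF3 have been linked to translation as well as decay. YTHDC1 is the nuclear reader, known for roles in splicing and export, and YTHDC2 is a large RNA helicase known in mice for its part in meiosis. In mammalian mRNA, m6A is found most often around stop codons and in long internal exons, and most of the coding sequence of each YTHDF gene lies in a single long internal exon.

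Each condition was represented by 1 library, so conditions could not be tested against each other, and a difference between the libraries cannot be told apart from an effect of CDCA. All intervals are at the 95% level and reflect counting error alone. Fold enrichment, summit height and −log10 q are the authors' own peak values, and each list was made against its own background, so values from the 2 lists are given side by side as descriptions. Heights moved in steps of 0.640 in the CDCA list and 0.862 in the control list, and each step was taken as 1 fragment at the summit. The lists name neither strand nor gene and no hg19 gene models were used, so exons and untranslated regions were not assigned. Distances are from the edges of the spans above, which are rounded to 1 kb. The lists hold no expression values, so marker genes of the stomach could not be used to check the cells.

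All 5 genes carried peaks in both libraries, and each gene had at least 1 peak at the same place in both. YTHDF1 had 1 peak in CDCA-treated cells and 2 in control cells. YTHDF2 had 3 in CDCA-treated and 4 in control cells, and YTHDF3 had 3 and 7. YTHDC1 had 3 peaks in each library, and YTHDC2 had 4 in CDCA-treated and 7 in control cells. The CDCA list thus held fewer peaks in 4 genes and an equal number in YTHDC1, and over the 5 genes it held 60.9% (29.0 to 123) of the control number, an interval that includes the 82.7% (81.8 to 83.7) found for the whole lists.

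**Figure D1:**
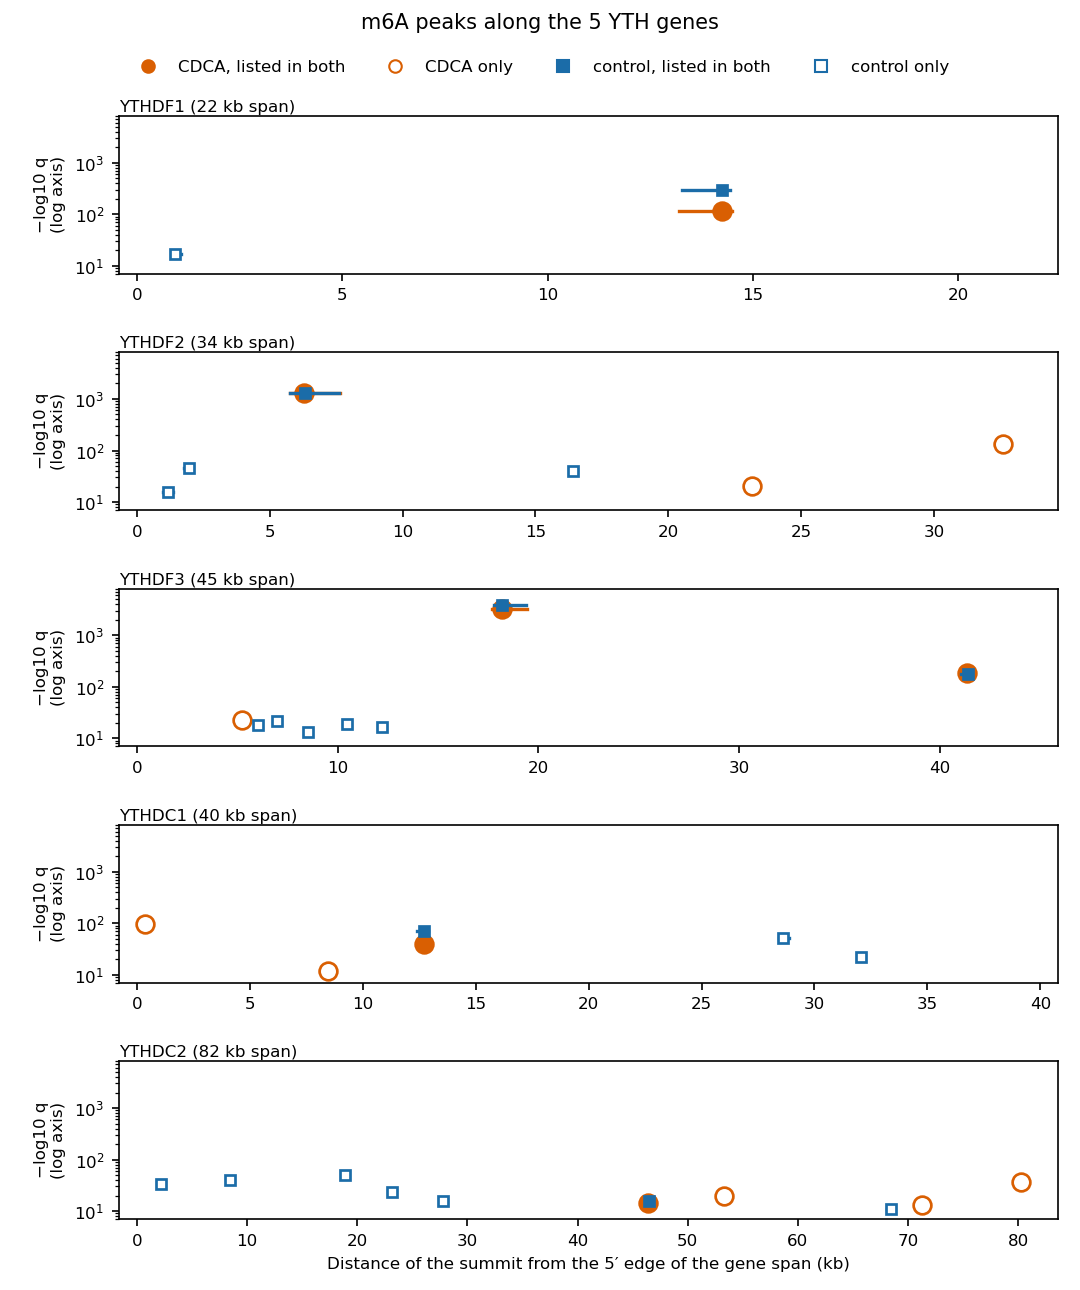
Position and strength of every m6A peak in the 5 YTH genes. The x axis is the distance of the summit from the 5′ edge of the gene span in kb, the y axis is −log10 q on a log axis, horizontal lines mark the extent of a peak (those shorter than a marker are hidden), circles are CDCA peaks, squares are control peaks, and filled markers are peaks listed in both libraries. The strongest peaks of YTHDF1, YTHDF2 and YTHDF3 are broad and coincide in both libraries, whereas most other peaks are listed in 1 library only.

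A broad peak over 1000 bp long stood inside each of the 3 YTHDF genes, in both libraries, and none stood in YTHDC1 or YTHDC2. In YTHDF3 it was the strongest site of the family. It spanned 64098711 to 64100432 on chromosome 8 in CDCA-treated cells (1722 bp) and 64098783 to 64100385 in control cells (1603 bp), with summits 2 bp apart. Its summit height was 2461 (counting interval 2384 to 2539.7) in CDCA-treated cells and 2870.3 (2774 to 2969.5) in control cells, with a fold enrichment of 54.7 and 62.4 and a −log10 q of 3248 and 3951. By −log10 q it ranked 44th of 52188 peaks in the CDCA list and 40th of 63093 in the control list.

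The broad peak of YTHDF2 spanned 29068754 to 29070646 on chromosome 1 in CDCA-treated cells (1893 bp) and 29068749 to 29070622 in control cells (1874 bp). The peaks overlapped by 1869 bp, which was 98.5% of the bases covered by either, the closest match of the pairs described here. Its height was 2019 (1949.5 to 2091) in CDCA-treated cells and 1991 (1910.2 to 2073) in control cells, so the counting intervals overlapped. It was lower than the broad YTHDF3 peak in both libraries and had a fold of 11.3 in CDCA-treated cells and 11.1 in control cells. The local background under it, recovered from height and fold, was 178 and 179. It ranked 208th by −log10 q (1328) in the CDCA list and 258th (1293) in the control list, but 13349th and 24596th by fold.

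The broad peak of YTHDF1 was lower in both lists. It spanned 61833501 to 61834793 on chromosome 20 in CDCA-treated cells (1293 bp) and 61833557 to 61834719 in control cells (1163 bp), so the control peak lay wholly inside the CDCA peak. Its summit height was 253 (228 to 279) in CDCA-treated cells and 418 (382 to 457) in control cells, and these counting intervals did not overlap. The fold was 6.50 (5.88 to 7.18) in CDCA-treated cells, close to the lowest fold of 6.0 in either list, and 12 (10.9 to 13.1) in control cells, with −log10 q values of 113 and 288. The recovered background was 38 and 34. The fold put this peak in the top 85.7% of the CDCA list and the top 33.1% of the control list. The fold intervals take the background as fixed. Height intervals of the libraries were also apart at the broad YTHDF3 peak above and, narrowly, at the YTHDC1 site given further on, and in all 3 cases the CDCA height was the lower one. Heights were lower over the whole CDCA list too, with a median of 19.8 against 25.9 in the control list. The height of 1 step was also lower there, 0.640 against 0.862. Counted in steps, taken as fragments, the broad YTHDF3 peak went the other way round. It had 3847 (3726 to 3971) in CDCA-treated and 3328 (3216 to 3443) in control cells. The YTHDF1 peak had 395 (357 to 436) and 485 (443 to 530.1), still lower in CDCA-treated cells. These counts were not scaled between the libraries, whose depth in reads is unknown. At the YTHDC1 site the fragment intervals overlapped, 96 (77.8 to 117) and 107 (87.7 to 129). Treatment and library cannot be told apart in any of them.

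The summits of the 3 broad peaks sat at different places. In YTHDF3 the summit was 18164 bp from the 5′ edge of the span in CDCA-treated cells and 18166 bp in control cells, or 40.4% of the way along in each. In YTHDF2 it was 18.5% and 18.7% of the way along. In YTHDF1 it was 64.7% and 64.8% of the way along, and there the summit lay near the 3′ end of the peak, 259 bp from it in CDCA-treated and 193 bp in control cells. The YTHDF2 and YTHDF3 peaks had their summit nearer the 5′ end. None of these 3 summits fell in the last 20% of a span. Peaks this long were 1.84% of the CDCA list and 1.79% of the control list, against 3 of 14 (21.4%, 4.66 to 50.8) and 3 of 23 (13%, 2.78 to 33.6) in the YTH genes. Across the whole lists 94.9% of such long CDCA peaks and 94.1% of such long control peaks met a peak of the other list, as all 3 did here.

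YTHDF3 had a further strong site near its 3′ edge. It lay at 64122068 to 64122621 in CDCA-treated cells and 64122043 to 64122547 in control cells, 3632 and 3617 bp from that edge. Its height was 259.7 (235 to 286) in CDCA-treated cells and 233 (206 to 262) in control cells, its fold 12.4 and 14.6, and its −log10 q 183 and 181. This was the only peak listed in both libraries in the last 20% of a YTH gene.

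In the 5′ part of YTHDF3 the libraries listed weak peaks that did not coincide. CDCA-treated cells had a single CDCA-only peak, with its summit 5248 bp from the 5′ edge (64086132 to 64086350; fold 6.07, −log10 q 22.5). Control cells had 5 control-only peaks with summits between 6052 and 12230 bp from that edge, folds from 6.44 to 8.27 and −log10 q from 13.5 to 21.8. The strongest of them lay at 64087818 to 64088042 (fold 8.27, −log10 q 21.8). They rested on 32 to 42 fragments each, and the first began 601 bp beyond the CDCA-only peak. These 6 peaks were 200 to 234 bp long, near the minimum length of 200 bp. Among all peaks 33.2% in the CDCA list and 33.3% in the control list had that minimum length, against 0 of 14 and 2 of 23 in the YTH genes.

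YTHDF2 had strong signal near its 3′ edge in the CDCA list alone. That peak lay at 29095283 to 29095706, 1404 bp from the edge, with a height of 309 (282 to 338) and a −log10 q of 133. The nearest control peak was 15740 bp away. Its fold of 6.22 (5.68 to 6.80) was close to the lowest fold of 6.0 in either list, in the top 93.3% of the CDCA list. Neither list held a peak with a fold under 6.0, so a control peak below that would not show. The CDCA peak near the 3′ edge was the only strong peak of the 5 genes that was listed in 1 library. Strong means a −log10 q of at least 100. A weaker CDCA-only peak stood at 29085967 to 29086312 (fold 9.45, −log10 q 20.2). Control cells had instead a control-only peak at 29079287 to 29079543 (fold 11.8, −log10 q 40.5) and a pair near the 5′ edge, at 29063991 to 29064374 (6.58 and 15.4) and 29064785 to 29065035 (7.58 and 45.5).

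YTHDC1, the nuclear reader, had 1 site in common and otherwise different peaks. The common site lay 31.7% of the way along the gene in CDCA-treated cells (69203043 to 69203570 on chromosome 4) and 31.8% in control cells (69203127 to 69203613). Its height was 61.4 (49.7 to 75) in CDCA-treated cells and 92.3 (75.6 to 112) in control cells, its fold 9.75 and 13, and its −log10 q 39.3 and 69.8. The CDCA-only peaks were both in the 5′ part. One at 69207450 to 69207889 was weak (fold 6.98, −log10 q 11.7). The other, at 69215476 to 69215777, had its summit 354 bp from the 5′ edge and was the strongest YTHDC1 peak of that library, with a height of 99.8 (84.7 to 117), a fold of 20.2 and a −log10 q of 96.0. The nearest control peak to it was 11863 bp away. The control-only peaks were both in the 3′ part, at 69187114 to 69187550 (fold 14.9, −log10 q 52.6) and 69183823 to 69184049 (6.92 and 21.9).

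Because that CDCA-only peak stood at the start of YTHDC1, and control-only peaks stood within 2 kb of the start of YTHDF1 and YTHDF2, the sequences around the annotated starts are shown. Antibodies to m6A also bind N6,2′-O-dimethyladenosine, a cap-linked form that can occur where the first transcribed base is A. The windows below are from RefSeq on GRCh38.p14, whose coordinates cannot be set against the hg19 peaks. They run 5′ to 3′ with 10 bases before the start in lower case and the first 20 transcribed bases in capitals. YTHDC2, which had no peak within 2 kb of its 5′ edge, comes last. YTHDF3 had no peak within 2 kb inside its 5′ edge either, but its start is not shown. Starts without such a peak are thus represented by YTHDC2 alone.
YTHDC1 (chr4:68350071-68350100, minus strand): agcgcagggcATTTCGGGAGCGGGATTGTT
YTHDF1 (chr20:63216112-63216141, minus strand): cgccgctgctGTCGCCGCCGCCGCCGCCAT
YTHDF2, upstream start (chr1:28736614-28736643, plus strand): cagagctagtCTTTCCAGGTGTTAGTCGAA
YTHDF2, downstream start (chr1:28736930-28736959, plus strand): ctcttgggctAGAGCGTCGCCGAGTCGGAG
YTHDC2 (chr5:113513684-113513713, plus strand): ttacgcccgcGCTCCTCGCCTGGCCGTGAT
The annotated start of YTHDC1 and the downstream start of YTHDF2 begin with A, as did 44.4% of the 35116 starts in the table, and the other starts shown begin with G or C. GGAC, the core of the commonest m6A context, was searched in the first 50 transcribed bases; on the transcribed strand it was in none of the 5 starts shown, which belong to 4 genes, and in 18.9% of all starts, and on the opposite strand it was in 17.6% of all starts and in YTHDF1 and the upstream YTHDF2 start among those shown. These matches describe letters only, and annotated starts may not be the ones used in GES-1 cells.

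The start of YTHDF1 lay close to the boundary of the rule. Just inside the span, 924 bp from the 5′ edge, control cells had a weak control-only peak at 61846931 to 61847156 (fold 7.04, −log10 q 16.9). Just outside, 148 bp beyond the edge, was another control peak (61848099 to 61848308; 10.6 and 20.5). A site listed in both libraries followed, with its summit 572 bp beyond the edge in CDCA-treated cells (61848415 to 61848892; fold 11.4, −log10 q 21.0) and 783 bp beyond it in control cells (61848470 to 61848989; 42.1 and 141). These outer peaks were not counted as members, and no other gene span had a peak within 1 kb outside its edges.

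YTHDC2 had the lowest common site of the 5 genes, and most of its other peaks lay far from any peak of the other list. Its common site, at 112895329 to 112895577 on chromosome 5 in CDCA-treated cells and 112895379 to 112895614 in control cells, had a height of 24.9 (17.7 to 34.1) and 31.1 (21.7 to 43.0), a fold of 7.82 and 6.41 and a −log10 q of 14.4 and 15.4. In CDCA-treated cells the 3 CDCA-only peaks all lay beyond the common site, at 112902168 to 112902379 (fold 6.86, −log10 q 19.2), 112919833 to 112920336 (8.81 and 13.3) and 112929116 to 112929602 (8.28 and 36.9), the last of them 1780 bp from the 3′ edge. In control cells 5 control-only peaks lay in the 5′ part, between 2178 and 27758 bp from the 5′ edge. The 3 strongest of these were at 112867710 to 112868063 (fold 20.2, −log10 q 50.6), 112857280 to 112857583 (15.4 and 40.6) and 112851101 to 112851313 (12 and 33.2). The nearest CDCA peak was 18442 to 27266 bp from each of these 5. The remaining control-only peak, at 112917078 to 112917601 (6.07 and 11.2), also lay beyond the common site, 2232 bp from the nearest CDCA peak.

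Over the 5 genes, 6 of 14 CDCA peaks (42.9%, 17.7 to 71.1) overlapped a control peak by at least 1 bp, and 6 of 23 control peaks (26.1%, 10.2 to 48.4) overlapped a CDCA peak. The same shares over the whole lists were 22.2% and 18.2%, inside both intervals. Strong peaks were 5 of 14 in CDCA-treated cells (35.7%, 12.8 to 64.9) and 4 of 23 in control cells (17.4%, 4.95 to 38.8), against 7.90% and 7.77% of the lists, and all of them were in YTHDF genes. Of these strong peaks 4 of 5 in CDCA-treated cells and 4 of 4 in control cells were shared, beside 91.2% and 87.6% of strong peaks in the lists. Below that level 2 of 9 CDCA peaks and 2 of 19 control peaks were shared, beside 16.3% and 12.3%. A fold of at least 10 was reached by 4 of 14 CDCA peaks and 11 of 23 control peaks, shares of 28.6% (8.39 to 58.1) and 47.8% (26.8 to 69.4) beside 35.3% and 47.0%. For fold and for sharing at a given strength, the shares in the YTH genes lay near those of the lists, within wide intervals.

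**Figure D2:**
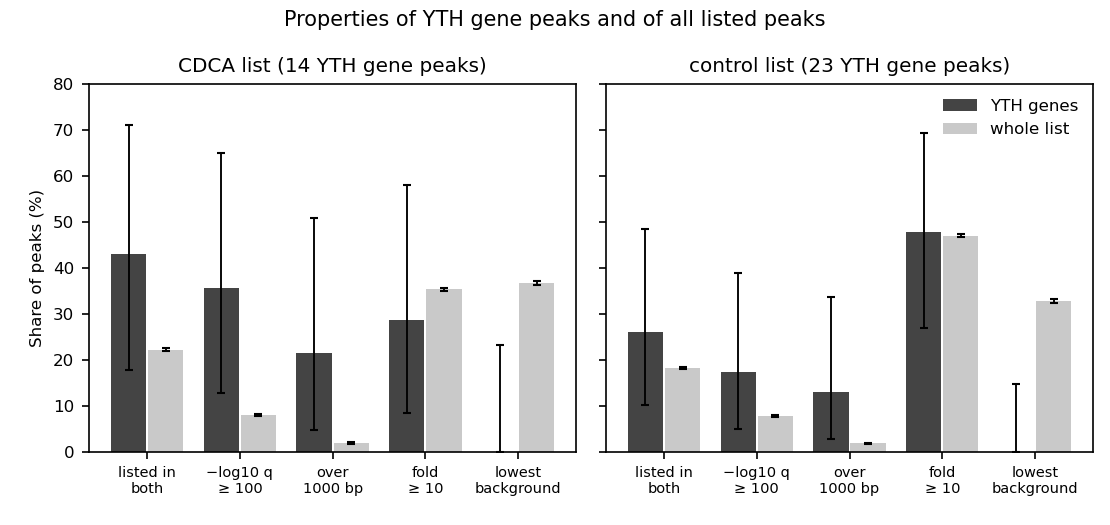
Share of peaks in percent with each property, for peaks of the 5 YTH genes (dark bars) and for the whole list (light bars), CDCA list on the left and control list on the right. Error bars are exact Clopper-Pearson 95% intervals, which are wide for the 14 and 23 peaks of the YTH genes. They include the whole-list share for sharing between lists and for a fold of at least 10. In the control list they also include it for a −log10 q of at least 100 (4.95 to 38.8, whole list 7.77%).

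**Figure D3:**
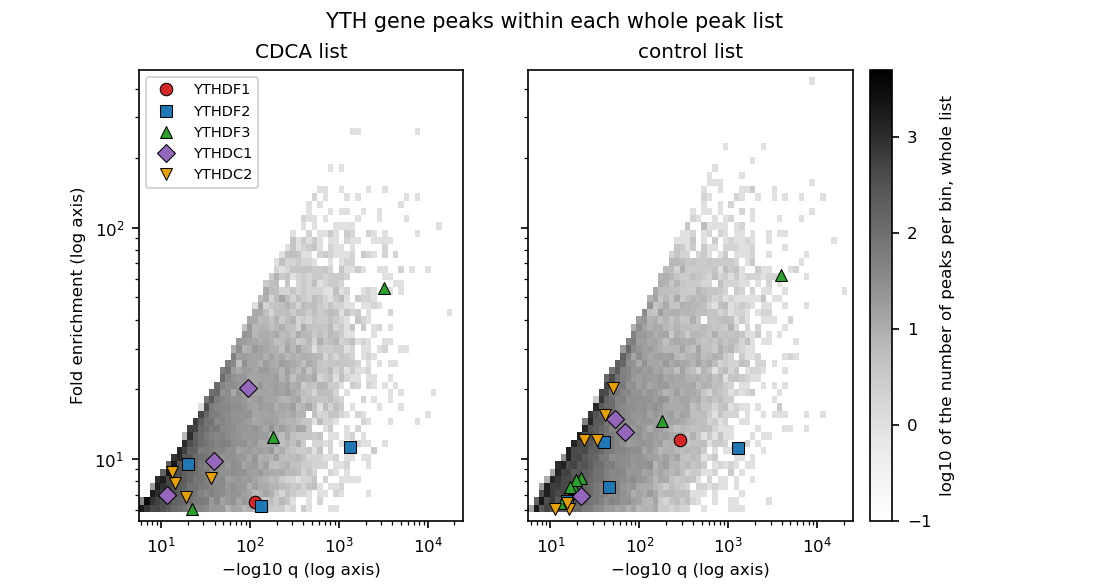
Fold enrichment against −log10 q, both on log axes, for the peaks of the 5 YTH genes (coloured symbols) over the number of peaks per bin of the whole list (grey scale), CDCA list on the left and control list on the right. The YTHDF3 site stands far to the right with a fold of 54.7 and 62.4, whereas the YTHDF2 site stands far to the right with a fold of 11.3 and 11.1.

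The 6 common sites matched closely in position. Their summits were 2 to 49 bp apart, and the shared bases were 69.6% to 98.5% of those covered by either peak. In every pair the CDCA peak was the longer one, by 13 to 130 bp. The largest excesses were in YTHDF1 (130 bp) and YTHDF3 (119 bp at the broad peak). How often this held over all pairs of the lists was not counted, so whether it is particular to the YTH genes was not tested. Over the whole lists the upper quartile of length was 293 bp in the CDCA list and 277 bp in the control list, and the median 224 and 228 bp. The recovered background at these sites ran in the same order in both libraries. It was highest in YTHDF2 (178 in CDCA-treated and 179 in control cells), then at the broad YTHDF3 peak (44 and 45), in YTHDF1 (38 and 34), at the downstream YTHDF3 peak (20 and 15), in YTHDC1 (5.4 and 6.2) and in YTHDC2 (2.3 and 4.0). The lowest background of each list was 0.745 in CDCA-treated and 0.798 in control cells. No peak of the 5 genes stood at that lowest level, 0 of 14 (Clopper-Pearson upper bound 23.2%) and 0 of 23 (14.8%), whereas 36.7% and 32.8% of all peaks did.

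**Figure D4:**
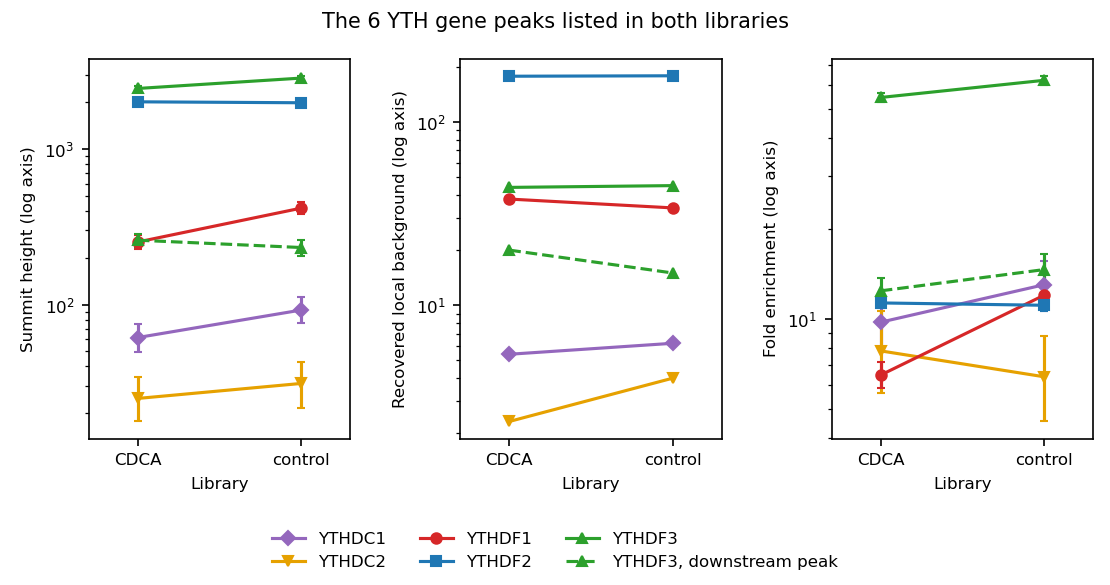
Summit height, recovered local background and fold enrichment, each on a log axis, of the 6 sites listed in both libraries, with the CDCA library left and the control library right in each panel. Bars on height and fold are 95% counting intervals of the fragments at the summit; the YTHDF1 intervals of height (228 to 279 and 382 to 457) do not overlap.

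The peaks listed in 1 library were also counted by where they lay along the gene. Of the CDCA-only peaks, 3 of 8 had their summit nearer the 5′ edge than the 3′ edge (37.5%, 8.52 to 75.5), and of the control-only peaks 14 of 17 did (82.4%, 56.6 to 96.2). This split was picked out after the values had been seen, its intervals overlap, and peaks of a gene share their transcript. Of the control-only peaks, 5 in YTHDF3 and 5 in YTHDC2 each stood in a run between the same neighbouring CDCA peaks. YTHDC1 ran the other way, with both CDCA-only peaks in its 5′ part and both control-only peaks in its 3′ part. In the last 20% of the spans lay 4 of 14 CDCA peaks (28.6%, 8.39 to 58.1) and 3 of 23 control peaks (13%, 2.78 to 33.6).

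A peak that is absent from a list may still have been called. The peaks carry running numbers in order of position, and both lists skip numbers. Between the neighbouring peaks of the other list, at least 1 number was skipped for 7 of 8 CDCA-only peaks and 15 of 17 control-only peaks of the YTH genes, beside 63.2% of all CDCA-only peaks and 73.2% of all control-only peaks. Several peaks shared a gap of the other list, so these counts rest on 4 of 5 control gaps and 5 of 7 CDCA gaps. The gaps were wide, from 12.4 kb in YTHDF3 to 1115 kb beyond the common YTHDC1 site, and the place of a skipped peak within them is unknown. The CDCA-only peak at the start of YTHDC1 lay in that widest gap, which had 2 skipped control numbers, and the CDCA-only peak near the 3′ edge of YTHDF2 lay in a gap of 136 kb with 5. In 3 gaps no number was skipped, those of the weak CDCA-only peak of YTHDF3 and of the control-only peaks at the 5′ edge of YTHDF1 and at 112917078 to 112917601 in YTHDC2.

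Peaks were denser inside the 5 genes than beside them. Over 223 kb of gene spans there were 0.628 CDCA peaks and 1.03 control peaks per 10 kb, against 0.11 and 0.13 in the 100 kb on either side of each gene. The ratio was 5.71 (2.41 to 13.9) in CDCA-treated cells and 7.93 (3.85 to 17.1) in control cells. Windows of 1 Mb that hold any peak averaged 0.192 and 0.233 peaks per 10 kb. These values describe where the peaks stood. The flanks were not chosen to be transcribed, and no random or matched genes were measured. Whether the ratio is particular to the YTH genes was not tested. YTHDC1 had no peak of either list in its flanks. In RefSeq's GRCh38.p14 table no other gene overlapped any of the 5. YTHDF3-DT lay 110 bp from YTHDF3, and LOC124901046 lay 35 bp from YTHDC2. The spans are rounded to 1 kb and the lists name no strand, so a span may reach into a neighbour. Neither YTHDF3 nor YTHDC2 had a peak within 2 kb inside its 5′ edge. YTHDF1P1, YTHDF2P1 and YTHDF3P1 are listed as pseudogenes of the YTHDF genes. How reads that match a gene and its pseudogene were assigned is not given in the sources used here. Heights in the YTHDF genes carry that uncertainty.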

How the data were processed

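The deposited data were 1 peak list for each immunoprecipitation library, as a table and as intervals with identical positions. The submitters' processing notes name MACS2 2.1.0, TopHat2 2.0.13 and hg19 without a role. Per the file headers, the authors gave each summit's height as a pileup signal, its fold enrichment as a ratio, and its p-value and q-value as −log10. Lists were made per library, not on pooled samples, and their filters are not given in the sources used. The lowest fold was 6.00 in each list. Of 100129 running numbers the CDCA list held 52188, and of 110153 the control list held 63093. A peak listed in 1 library may thus have been called but left out of the other list. Library depth in reads is unknown.

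From these, summits were placed in the 5 gene spans, overlaps of at least 1 bp between lists were found, and the local background was computed as height plus 1 over fold, minus 1. Heights were whole multiples of a step for 100% of peaks in each list (tolerance 0.02 steps). Shares carry exact Clopper-Pearson intervals and heights exact Poisson intervals on fragments; fragments are not independent molecules, so both cover counting error only. The genes, lists and thresholds were chosen with earlier results of these data known. All 5 genes are described, and peaks named singly are those shared between lists and the 3 of each gene and list with the highest −log10 q; further peaks were named after their values had been seen. Overlap and step finding were tested on simulated data. Scripts ran on scipy 1.17.1, pandas 2.3.3 and numpy 2.4.6 in Python 3.11.15, with plots from matplotlib 3.10.9. Other m6A genes were not analysed here, since an hg19 annotation was not used.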

Additional observations from a re-analysis of the deposited data

How the results depend on the processing

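Of 42 alternative values, 37 stayed within 1.5 times the count or within the interval (for the background, the quartiles) of the main one, and 5 did not. With a fold of at least 10 the 5 genes held 4 CDCA and 11 control peaks, in place of 14 and 23, and asking for a −log10 q of 20 or more left 14 control peaks. With a fold of at least 10 in both lists, 75% of CDCA peaks were shared, in place of 42.9%. By fold, the strongest peak of a gene was shared in 2 of 5 genes in control cells, in place of 4 by −log10 q. These thresholds leave out the weaker peaks by construction. Sharing did not change when an overlap of 50%, summits within 100 bp or peaks within 200 bp were asked for. No paired analysis was possible because each condition had 1 library, and for the same reason no replicate could be left out. The wide intervals follow from 14 and 23 peaks.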
